A study of Homo sapiens with 10 samples.

Results

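The genes described here build 3 kinds of contact between epithelial cells, namely the tight junction, the desmosome and the gap junction, together with the nectins of the adherens junction. They were the protein-coding genes of the deposited table whose symbols begin with CLDN, DSC, DSG, PKP, TJP, NECTIN, GJA, GJB or GJC and a digit, plus DSP, JUP, OCLN and F11R. This rule, which uses gene names and no measured value, found 63 genes among 46427 rows of the table, of which 19672 were protein-coding. They were 24 claudins, 17 connexins, 7 desmosomal cadherins, 6 desmosomal plaque proteins, 4 nectins, 3 TJP genes, and the pair OCLN and F11R.

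Claudins are membrane proteins whose extracellular loops seal the space between neighbouring cells or form channels for ions and water through it. Occludin (OCLN) and the immunoglobulin-like adhesion molecule JAM-A (F11R) lie beside them, and the scaffolds of the TJP genes (the zonula occludens proteins) tie them to actin. Nectins are immunoglobulin-like adhesion molecules that help to start adherens junctions. In desmosomes, the cadherins of the DSG and DSC families meet between cells, while plakoglobin (JUP), the plakophilins (PKP) and desmoplakin (DSP) connect them to keratin filaments. Connexins (GJA, GJB and GJC genes) assemble into channels that let ions and small molecules pass directly from cell to cell.

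Poly(A) RNA of the established human lung cancer cell lines H460 and A549 was sequenced in 10 libraries. H460 cells gave 3 libraries of parental cells in 2D culture, 1 of tumor spheroid (TS) cells, which the titles name CTC, and 4 of drug-resistant cells, while A549 cells gave 1 library of 2D and 1 of TS cells. TS cells were grown on poly-HEMA-coated plates in a medium with B27, bFGF and EGF and passaged 3 times, whereas 2D cells grew attached in medium with serum, so that attachment and medium both differ between them and cannot be told apart. Drug-resistant cells were the H460 cells that survived 3 days of cisplatin at 4 µM (CR, 1 library), paclitaxel at 5 nM (PR, 2 libraries) or doxorubicin at 0.5 µM (DR, 1 library), followed by 3 days in fresh medium, and that attached again after re-plating. Nothing in the labels says that replicates came from separate cultures, so p-values measure only the spread between these libraries, which may be technical.

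Each library had between 59499787 and 89541774 counts on genes. The numbers of genes with a count were 21036 to 21603 in the parental libraries, 22720 in CR, 25781 and 26133 in PR and 26745 in DR cells. The epithelial keratins KRT8 and KRT18 were between 283 and 3866 FPKM and between 190 and 3229 FPKM, respectively (FPKM scales fragments for transcript length and library depth, so that levels of different genes can be compared per length). EPCAM did not exceed 1.04 FPKM in any library, and E-cadherin (CDH1) was at 9.29 and 11.9 FPKM in the A549 libraries but at most 0.0266 FPKM in the H460 libraries. KRT19, of the same epithelial list, ranged from 3.57 FPKM in A549 2D to 738 FPKM in CR cells. Markers of endothelial and alveolar type II cells were all below 1 FPKM. Of the immune list, PTPRC and CD3E did not exceed 0.157 and 0.058 FPKM, whereas CD14 was at 2.37 to 17.1 and CD68 at 15.0 to 69.8 FPKM. Of the 6 fibroblast markers, 3 stayed below 1 FPKM, while COL1A1, COL3A1 and LUM reached 6.51, 26.5 and 26.6 FPKM. As these are bulk samples, fewer cells expressing a gene and less RNA per cell cannot be told apart.

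The results below turn most on CLDN2 in A549 TS cells, GJA5 in H460 TS cells, and NECTIN4 and OCLN in drug-resistant cells. The 200 bases before the RefSeq start of these genes (GRCh38.p14, printed 5′ to 3′ on the gene's own strand) are shown so that the letters near each start can be read beside the levels. Capitals mark a match to CACCTG or its reverse complement CAGGTG (the E-box that SNAIL and ZEB factors are known to bind) or to TGANTCA (the AP-1 motif, which is its own reverse complement).
CLDN2, chrX:106899964-106900163, plus strand: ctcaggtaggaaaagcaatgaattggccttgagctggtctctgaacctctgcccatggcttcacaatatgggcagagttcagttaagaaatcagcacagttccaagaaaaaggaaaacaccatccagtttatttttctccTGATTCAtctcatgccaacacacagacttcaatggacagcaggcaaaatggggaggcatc
GJA5, chr1:147773352-147773551, minus strand: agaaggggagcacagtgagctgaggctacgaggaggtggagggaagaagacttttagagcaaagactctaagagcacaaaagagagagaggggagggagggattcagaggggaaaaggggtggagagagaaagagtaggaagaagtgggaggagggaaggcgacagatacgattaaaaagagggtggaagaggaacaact
NECTIN4, chr1:161089559-161089758, minus strand: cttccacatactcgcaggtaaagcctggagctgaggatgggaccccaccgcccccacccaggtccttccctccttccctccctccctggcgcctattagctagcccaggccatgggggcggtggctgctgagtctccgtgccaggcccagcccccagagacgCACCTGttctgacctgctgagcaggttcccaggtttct
OCLN, chr5:69492347-69492546, plus strand: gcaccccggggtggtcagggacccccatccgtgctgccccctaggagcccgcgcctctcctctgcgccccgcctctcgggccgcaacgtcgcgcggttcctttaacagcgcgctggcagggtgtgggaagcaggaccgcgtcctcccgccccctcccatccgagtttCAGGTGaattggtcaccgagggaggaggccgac

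The E-box letters began 38 bases before the start of NECTIN4 and 33 bases before that of OCLN, and the AP-1 letters began 60 bases before that of CLDN2. The GJA5 window held neither. RefSeq promoter windows were available for 43 of the 63 genes. In the 250 bases before the start, the E-box letters stood in 10 of these 43 windows (23.3%) and in 17.0% of the 15515 protein-coding promoters searched the same way. TGANTCA stood in 5 windows (CLDN2, CLDN4, CLDN15, CLDN16 and GJA1), which is 11.6%, against 5.04% of all promoters. The TATA letters TATAAA, on either strand, stood in 2 windows (4.65%) against 9.17% of all promoters, and the grainyhead motif AACCGGTT in none of the 43 windows against 0.116% of all promoters. The motifs do not overlap one another in the printed windows, and a match is a description of letters and no evidence of binding.

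Of the 63 genes, 32 reached 1 FPKM in at least 1 library, 31 stayed below 1 FPKM in every library, and 6 of those (CLDN8, CLDN20, CLDN25, GJA4, GJA9 and GJA10) had no count anywhere. All 4 nectins reached 1 FPKM, as did TJP1, TJP3, OCLN and F11R, 5 of 6 plaque proteins and 3 of 7 desmosomal cadherins, but only 8 of 24 claudins and 7 of 17 connexins. The highest mean levels over the libraries, in descending order, were those of JUP, GJA1, DSG2, CLDN1, NECTIN2, CLDN2, GJA5, PKP4 and PKP3. CLDN2 and GJA5 owe their place to 1 library each. CLDN22 and CLDN24 are closely similar copies, and how the counting treated reads shared between genes is not given in the sources used here.

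**Figure D1:**
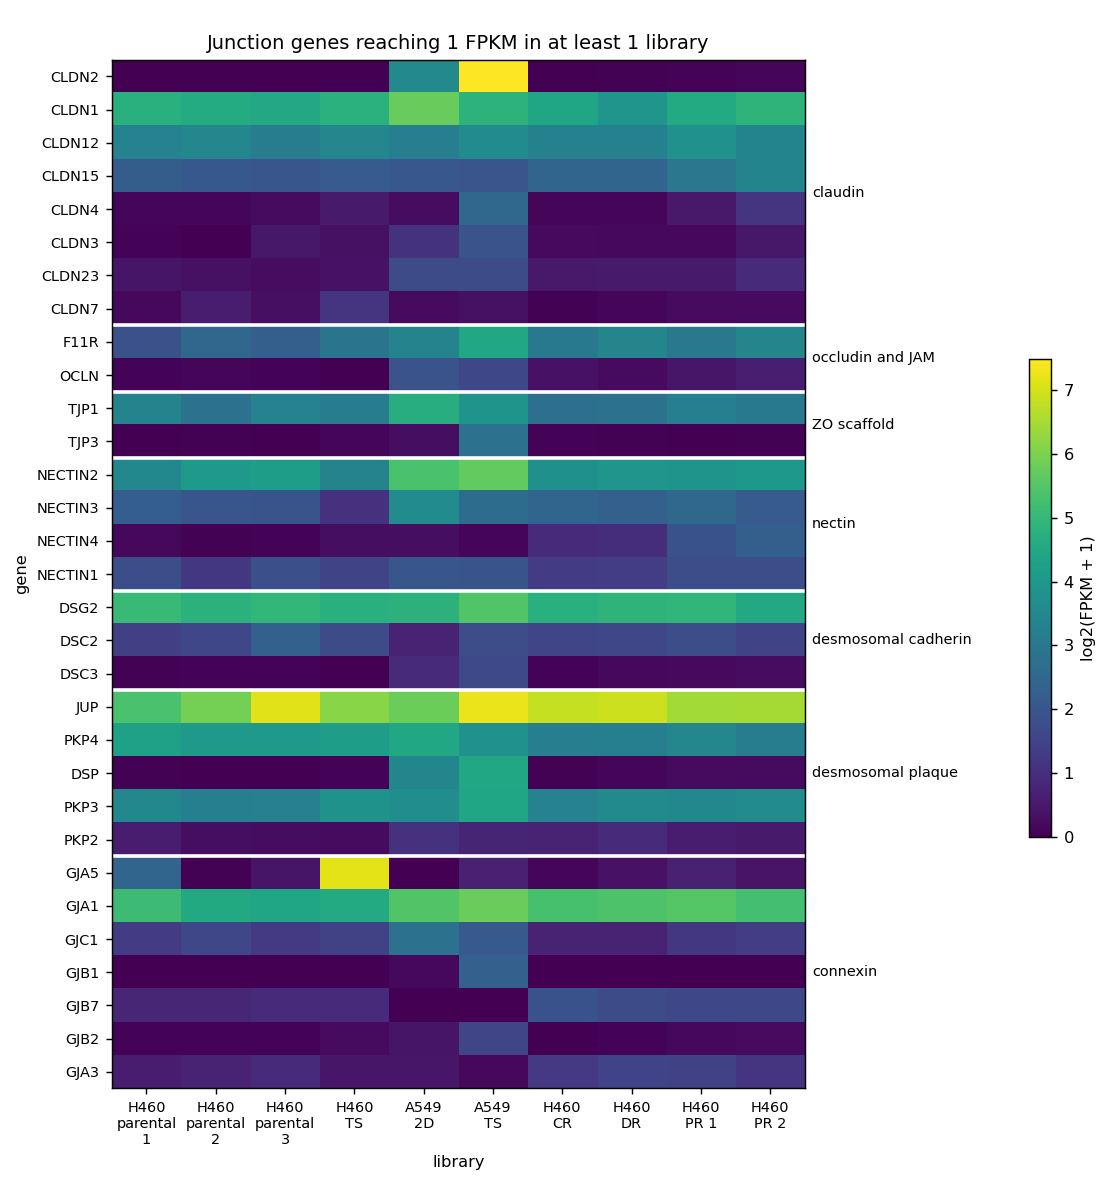
Heat map of log2(FPKM + 1) for 31 of the 32 junction genes (rows, grouped by class) that reached 1 FPKM in at least 1 of the 10 libraries (columns). JUP, GJA1, DSG2 and CLDN1 are bright in every column, whereas CLDN2 reaches 178 FPKM in A549 TS cells and GJA5 144 FPKM in H460 TS cells only.

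Plakoglobin, which belongs to both desmosomes and adherens junctions, led the plaque proteins in every library. JUP was at 39.5, 59.3 and 141 FPKM in the parental libraries, 112 in CR, 120 in DR, 86.8 and 88.7 in PR and 70.1 in H460 TS cells, while the A549 libraries held 54.7 (2D) and 153 FPKM (TS). The 3 parental values alone spanned more than a factor of 2 (mean 80.1 ± 54.1, SD, n = 3), and the H460 TS and drug-resistant values all lay within their range. DSG2, the widely expressed desmoglein, ranged from 22.0 FPKM in PR replicate 2 to 43.2 FPKM in A549 TS cells and supplied between 88.0% and 94.9% of the summed FPKM of the desmosomal cadherins.

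Among connexins, GJA1, the most widespread of the family, was at 34.2, 22.6 and 20.1 FPKM in the parental libraries and supplied at least 82.1% of the summed connexin FPKM in 9 of the 10 libraries. The exception was H460 TS, where GJA5 made up 84.5% of a sum of 171 FPKM. Among claudins, the barrier-forming CLDN1 led in 9 libraries, between 13.9 FPKM in DR and 52.4 FPKM in A549 2D cells. In A549 TS cells, CLDN2 made up 77.3% of a claudin sum of 230.3 FPKM, which was 78.1 FPKM in A549 2D cells. In the same pair CLDN1 was at 27.4 FPKM in TS against 52.4 FPKM in 2D cells (ratio 0.524), and other widely expressed junction genes were lower in A549 TS cells too, namely TJP1 at 13.7 against 24.3 FPKM (ratio 0.561) and GJC1 at 3.31 against 6.11 FPKM (ratio 0.541). These 3 genes did not pass between TS and 2D cells over both lines (edgeR adjusted p = 1.00 for each).

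**Figure D2:**
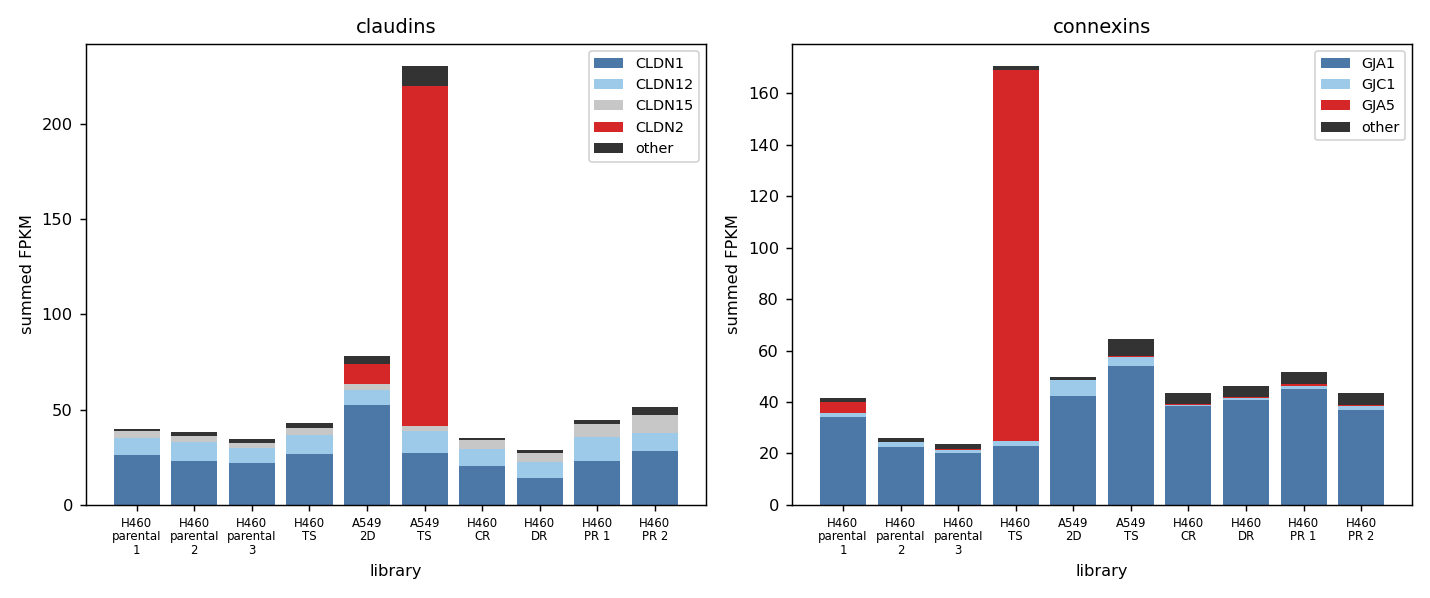
Stacked bars of summed FPKM (vertical axis, starting at 0) of the claudins (left) and connexins (right) in each of the 10 libraries, split into the leading genes and all others. CLDN1 and GJA1 fill most of nearly every bar, and the tallest bars, 230.3 FPKM in A549 TS for claudins and 171 FPKM in H460 TS for connexins, are mostly CLDN2 and GJA5.

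The first comparison asked which of these genes differed between TS and 2D cells. CLDN2, whose protein forms a channel for cations and water in leaky epithelia, was the only one of the 37 genes tested that passed the test over both lines. It had no count in the 3 parental H460 libraries and 3 counts (0.0106 FPKM) in H460 TS cells, whereas A549 cells had 10.5 FPKM in 2D and 178 FPKM in TS culture. The A549 ratio was 17.0, from 2321 to 42279 counts. In a fit of the 6 libraries with line and culture as terms, the log2 fold change of TS against 2D cells was 4.16 (SE 0.40, edgeR adjusted p = 0.0143), and given the counts it rests on the A549 pair. Leaving out parental replicate 2 or 3 gave edgeR adjusted p = 0.0852 and 0.0664, limma on log2(FPKM + 1) gave an adjusted p of 0.790, and over all alternatives tried the adjusted p lay between 2.46e-14 and 0.790.

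Called higher in TS cells was thus 1 of 37 junction genes (2.7%), against 0.146% of the 18488 genes tested, and called lower were 0 of 37, against 0.0433% of all genes (8 genes). At an unadjusted p under 0.05, 11 junction genes and 1372 of all genes passed with edgeR. DESeq2 called 5 higher (CLDN2, CLDN4, GJA5, GJB2 and TJP3) and 1 lower (NECTIN3), against 311 higher and 226 lower of the 18488 genes. Limma called 0 of the 22 junction genes it tested, against 21 higher and 8 lower of 12674 genes on log2(FPKM + 1). The median log2 fold change was 0.14 over the 37 junction genes and -0.01 over all genes tested.

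GJA5, a connexin best known from arterial endothelium and heart atria, had the largest difference between H460 TS and parental cells. It was at 4.48, 0.0347 and 0.35 FPKM in parental replicates 1, 2 and 3 (1266, 14 and 102 counts) and at 144 FPKM (34606 counts) in H460 TS cells. In A549 cells it was listed at 0 counts in 2D and 161 counts (0.602 FPKM) in TS cells, at least 49.5-fold higher against a floor of 3 counts per library. TS thus lay above 2D in both lines, but the H460 level in TS cells was far above the A549 one, and the parental libraries themselves differed widely. The H460 ratio to the parental mean was 88.9. Across both lines the log2 fold change was 6.66 (SE 1.51, edgeR adjusted p = 0.201), which did not pass. Without parental replicate 1, the highest of the parental libraries, it was 9.45 (SE 0.95, edgeR adjusted p = 0.0435). The TS effect on GJA5 in A549 minus that in H460 was 3.83 on the log2 scale with edgeR. With limma on log2(FPKM + 1) it had the opposite sign, at -5.52. As A549 2D had no count and each line had 1 TS library, these fits cannot decide whether the effect differs between the lines.

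Endothelial markers did not reach GJA5's level in H460 TS cells. Of the 4 markers, PECAM1 and CDH5 were at 0, VWF was at 0.021 FPKM and KDR at 0.463 FPKM, and the summed level was 0.484 FPKM, against 0.011 to 0.0451 FPKM in parental cells. The fibroblast list summed to 28.0 FPKM in H460 TS cells, against 14.1 to 28.2 FPKM in parental cells, with COL1A2 and PDGFRA at 0 in TS cells. Its members differed in opposite directions, as LUM was at 26.6 FPKM in H460 TS cells against 0.237 to 2.76 FPKM in parental cells, while COL3A1 was at 1.30 FPKM against 13.6 to 26.5 FPKM. The part of these markers in the GJA5 difference was not tested. The 5 protein-coding genes within 500 kb of GJA5 that reached 1 FPKM differed between H460 TS and parental cells by 0.09 to 0.81 on the log2(FPKM + 1) scale, against 6.20 for GJA5.

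In single lines, without replicates of TS cells, GJA5 was the only 1 of 32 junction genes (3.12%) more than 2-fold higher on the log2(FPKM + 1) scale in H460 TS cells than the parental mean, against 1.66% of 14410 genes, and 0 of 32 were more than 2-fold lower, against 1.69%. In A549 cells, 9 of 32 (28.1%) were more than 2-fold higher in TS than in 2D cells, against 5.86% of genes, and 0 were more than 2-fold lower, against 2.64%. The 9 were CLDN2, CLDN4, DSC2, DSP, F11R, GJB1, GJB2, JUP and TJP3. Of these, GJB1, GJB2 and TJP3 reached 1 FPKM only in A549 TS cells. They were thus among the 32 only through the library where they were high. On the log2(FPKM + 1) scale 0 junction genes were more than 2-fold higher in both TS libraries than in every 2D library of the same line, against 0.396% of genes, and 0 were more than 2-fold lower, against 0.167%.

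These counts depend on the pseudocount, since adding 1 shrinks the differences of genes with low FPKM. With 0.1 in its place, 2 of 32 (GJA5 and CLDN4) were more than 2-fold higher in both TS libraries, against 0.861% of genes, and 1 (NECTIN3) was more than 2-fold lower in both, against 0.562%. In H460 TS cells alone, 3 genes (GJA5, CLDN4 and CLDN7) were then more than 2-fold higher, against 3.53%, and NECTIN3 was more than 2-fold lower, against 4.47%. In A549 TS cells 13 were then more than 2-fold higher, with CLDN3, DSC3 and GJA5 among those added, against 9.56%, and 2 (NECTIN3 and GJA3) were more than 2-fold lower, against 5.46%. GJA3 was at 0.374 FPKM in A549 2D and 0.117 FPKM in A549 TS cells, a ratio of 0.314. Counts of 2-fold differences between 1 library and another carry no replicate check. CLDN7 reached 1 FPKM only in H460 TS cells, and DSC3, like GJB1, GJB2 and TJP3, only in A549 TS cells. Each of them thus entered these counts only through the library where it was high.

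The 9 genes of A549 TS cells came from all 3 kinds of junction. The scaffold TJP3 was at 0.205 FPKM in A549 2D and 6.07 FPKM in A549 TS cells, and at 0.0108, 0.0343 and 0.0147 FPKM in parental and 0.0845 FPKM in H460 TS cells. TS lay above 2D in both lines, and over both lines the log2 fold change was 3.45 (SE 0.81, edgeR adjusted p = 0.219). CLDN4, a sealing claudin of many epithelia, was at 0.183 and 4.81 FPKM in A549 2D and TS cells, and at 0.0728, 0.0713 and 0.165 FPKM in parental and 0.452 FPKM in H460 TS cells. Here too TS lay above the parental libraries in H460 and above 2D in A549, though PR replicate 2, also of H460, reached 1.18 FPKM, with TS against 2D at a log2 fold change of 3.25 (SE 0.78, edgeR adjusted p = 0.230).

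Gap junction genes of the GJB group also lay higher in A549 TS cells. GJB1, the main connexin of liver, was at 0.111 FPKM in A549 2D and 3.91 FPKM in A549 TS cells (17 and 528 counts), and had no count in any parental or H460 TS library. GJB2, the connexin of the inner ear and skin whose loss causes deafness, was at 0.355 and 1.98 FPKM in A549 2D and TS cells, at 0.057, 0.0542 and 0.0433 FPKM in parental and at 0.158 FPKM in H460 TS cells. Neither passed over both lines, with edgeR adjusted p = 0.304 for GJB1 and 0.225 for GJB2. The protein-coding genes within 500 kb of GJB1 and TJP3 that reached 1 FPKM (9 and 19 genes) lay between -0.24 and 0.69 and between -0.61 and 0.85, respectively, in A549 TS minus 2D cells on the log2(FPKM + 1) scale, whereas 2 of the 6 such genes near CLDN2 were more than 2-fold higher (0.35 to 1.30, against 3.96 for CLDN2).

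Desmosomal genes went both ways between A549 2D and TS cells. Desmoplakin, the link to keratin, was at 9.72 FPKM in A549 2D and 21.0 FPKM in A549 TS cells, a ratio of 2.16, and stayed at or below 0.0521 FPKM in the parental and H460 TS libraries. JUP went from 54.7 to 153 FPKM within the A549 pair (ratio 2.80), a smaller factor than that between parental replicates 1 and 3. The desmocollin DSC2 was at 0.632 and 2.41 FPKM in A549 2D and TS cells, a ratio of 3.82, and between 1.66 and 3.89 FPKM in the H460 parental and TS libraries. The plakophilins PKP4 and PKP2 were lower in A549 TS than in A549 2D cells, PKP4 at 12.9 against 21.3 FPKM (ratio 0.605) and PKP2 at 0.713 against 1.09 FPKM (ratio 0.657), whereas PKP3 was higher, at 20.5 against 11.7 FPKM. KRT8 and KRT18, which belong to the filaments that desmosomes anchor, were at 1446 and 1341 FPKM in A549 2D cells and at 3866 and 3229 FPKM in A549 TS cells. The immune list summed to 21.9 FPKM in A549 2D and 79.9 FPKM in A549 TS cells, of which CD68 gave 69.8 FPKM and PTPRC 0.005 FPKM, and its part in the A549 differences was not tested.

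F11R was higher and NECTIN3 lower in TS than in 2D cells of both lines, but neither passed the test. F11R was at 2.62, 4.55 and 3.81 FPKM in parental and 6.36 FPKM in H460 TS cells, and A549 cells had 9.17 FPKM in 2D and 21.1 FPKM in TS culture, so that each TS library exceeded the 2D libraries of its line (log2 fold change 0.99, SE 0.29, edgeR adjusted p = 0.352). NECTIN3 was at 3.71, 2.97 and 2.87 FPKM in parental and 1.09 FPKM in H460 TS cells, and A549 cells had 11.2 FPKM in 2D and 5.27 FPKM in TS culture. It was below every 2D library of the line in both TS libraries (log2 fold change -1.33, SE 0.26, edgeR adjusted p = 0.134, DESeq2 adjusted p = 2.56e-05). CLDN7 was at 0.107, 0.494 and 0.237 FPKM in parental and 1.24 FPKM in H460 TS cells.

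**Figure D3:**
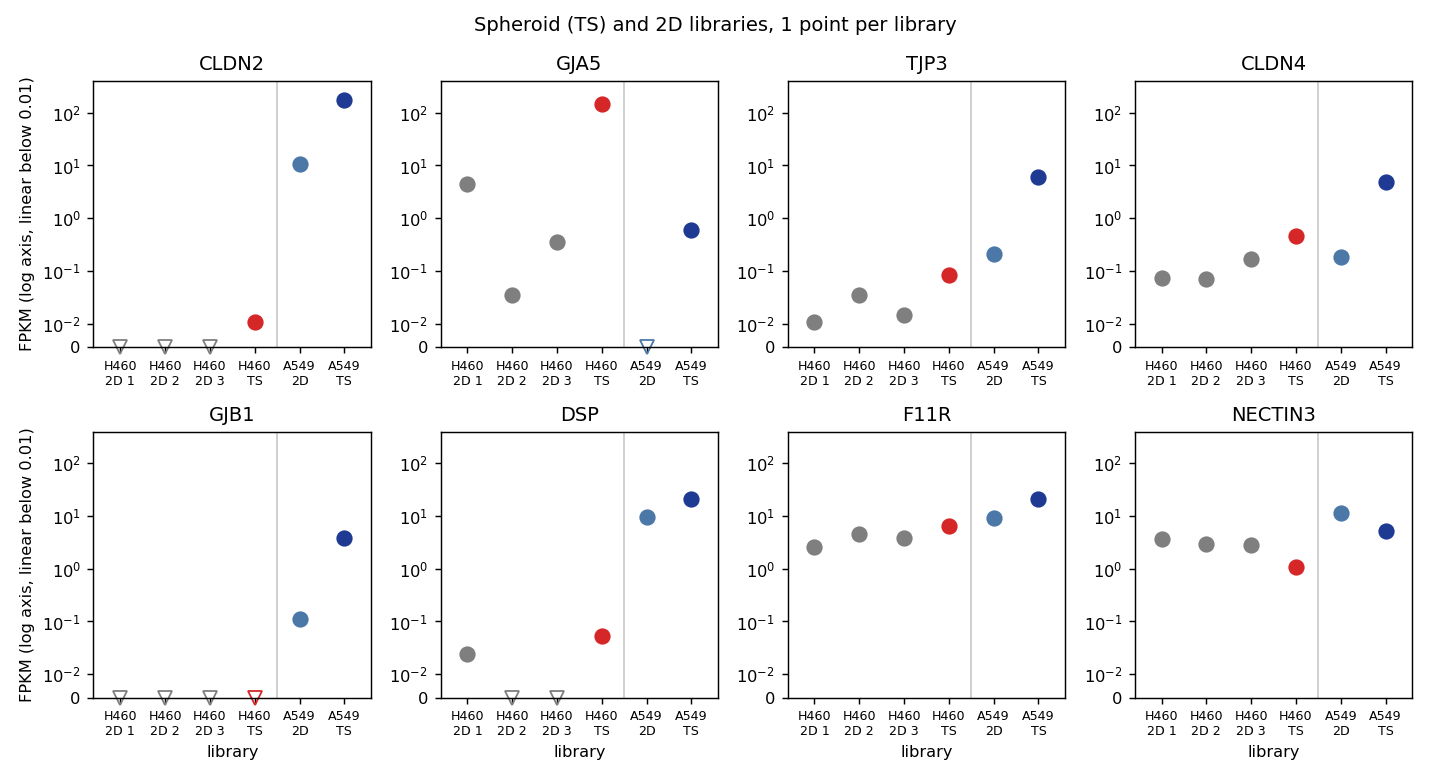
FPKM on a log axis (linear below 0.01) of 8 junction genes in the 3 parental H460 (2D), H460 TS, A549 2D and A549 TS libraries, 1 point per library, with open triangles for libraries without a count. CLDN2 and GJB1 stand high in A549 cells, GJA5 stands at 144 FPKM in H460 TS cells, and NECTIN3 is lower in the TS library than in the 2D libraries of each line.

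The next test asked whether the TS effect differed between the lines. It estimates its spread from the 3 parental libraries alone, with 2 residual degrees of freedom, and called 1 of 37 junction genes (2.7%) more positive in A549 cells, against 0.389% of all genes, and 0 more negative, against 0.0974%. The gene was the desmocollin DSC3, typical of stratified epithelia, with 27, 28 and 42 counts in parental and 0 in H460 TS cells, against 510 (2D) and 1326 (TS) in A549 cells. It was thus at least 9.41-fold lower in H460 TS than in parental cells, against a floor of 3 counts, and 2.39-fold higher in A549 TS than in A549 2D cells by FPKM. The fitted difference was 9.28 on the log2 scale (SE 1.54, edgeR adjusted p = 0.0484), a size that depends on the prior count because H460 TS had no count, and it passed in 4 of 7 alternatives that tested it.

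More junction genes passed between the lines than between the cultures. Over the same 6 libraries, 14 of 37 junction genes (37.8%) were higher in A549 than in H460 cells, against 14.4% of all genes, and 4 (10.8%) were lower, against 9.39%. The median log2 fold change was 0.72 over the junction genes and less than 0.01 over all genes tested. Every line difference rests on 2 A549 libraries, which differ in culture, and 4 H460 libraries.

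Tight junction genes gave 6 of the 14. CLDN2 had 44600 counts in the 2 A549 libraries and 3 in the 4 H460 libraries, a ratio of 30423 after scaling for depth (95% exact interval 10410 to 147530, counting error only), and it was at least 788-fold higher in A549 2D than in parental cells. OCLN was at 2.78 and 2.05 FPKM in A549 cells and at most 0.0892 FPKM in the parental and H460 TS libraries (log2 fold change 5.84, SE 0.49, edgeR adjusted p = 0.000604). The scaffolds TJP1 (log2 fold change 1.26) and TJP3 (4.59) were higher in A549 cells. F11R and CLDN23 completed the group, with log2 fold changes of 1.49 and 3.08.

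Desmoplakin showed one of the widest gaps between the lines (log2 fold change 9.38, SE 0.99, edgeR adjusted p = 0.00135). PKP2 and DSC3 were also higher in A549 cells, while the epidermal desmoglein DSG1 was lower, with 0 counts in A549 cells and 6 to 33 counts in the H460 libraries (at least 5.37-fold). Of the connexins, GJB1 was at least 80.9-fold higher in A549 than in the H460 libraries of the fit, GJB2 and GJC1 were higher, and GJB7 and GJA5 were lower. The GJA5 call passed in 6 of 13 alternatives, and its highest H460 value, 144 FPKM, was that of the 1 TS library. A549 TS cells, at 0.602 FPKM, lay above parental replicates 2 and 3 (0.0347 and 0.35 FPKM). GJB7, a connexin of the beta group, had no count in A549 cells and 122 to 175 counts in parental and H460 TS cells, at least 45.7-fold lower in A549. NECTIN2, a ligand of lymphocyte receptors, and NECTIN3 were higher in A549 cells by 1.87 and 2.06 on the log2 scale. The calls of CLDN2, CLDN23, DSP, GJB2, GJB7, NECTIN2, NECTIN3, OCLN and TJP3 stood under every alternative that tested the gene.

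The comparison of the 4 drug-resistant with the 3 parental H460 libraries asked which junction genes differ in cells that outlast chemotherapy. Called higher were 13 of 40 junction genes tested (32.5%), against 18.2% of the 19902 genes tested, and called lower were 4 of 40 (10%), against 14.3% of all genes. Of those called higher, CLDN2, CLDN6, CLDN10, PKP1 and GJB5 had fewer than 10 counts in every parental library. They met the filter of at least 10 counts in at least 2 libraries only through drug-resistant libraries. DSP, also called higher, had 21, 0 and 0 parental counts and could not meet it without a drug-resistant library either. FPKM ranges did not overlap between drug-resistant and parental cells in 12 of the 40 with the drug-resistant side higher (30%), against 25.9% of genes, and in 2 with it lower (5%), against 12.8%. The median log2 fold change was 0.50 over the 40 genes and 0.11 over all genes tested. Setting genes without a parental count to their lower bound could not move it, as they lay above the median either way. Upper-quartile scaling shifted the median over all genes to 0.29. The split of junction gene calls became 14 higher and 2 lower, beside 4458 higher and 2007 lower of the 19902 genes. GJC1 was among the calls lost there, and GJA1 gained one.

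NECTIN4, the nectin targeted by an antibody-drug conjugate in bladder cancer, had the lowest adjusted p of the 40. It was at 0.122, 0.0347 and 0.0532 FPKM in parental cells, 0.901 FPKM in CR, 0.958 FPKM in DR, and 2.73 and 3.83 FPKM in PR cells. Every drug-resistant library lay above every parental one, and both PR libraries lay above CR and DR. The log2 fold change was 4.50 (SE 0.63, edgeR adjusted p = 0.00088), and it passed in all 15 alternatives (adjusted p 5.75e-15 to 0.00706). In H460 TS cells NECTIN4 was at 0.222 FPKM, and the other nectins did not pass between drug-resistant and parental cells.

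OCLN was at 0.0527, 0.0892 and 0.0597 FPKM in parental cells, 0.299 FPKM in CR, 0.167 FPKM in DR, and 0.377 and 0.549 FPKM in PR cells, with no overlap between the groups (log2 fold change 2.21, SE 0.42, edgeR adjusted p = 0.00375). These levels remained below the 2.78 FPKM of A549 2D cells. F11R was at 7.09 FPKM in CR, 9.50 FPKM in DR, and 7.04 and 9.52 FPKM in PR cells, against a parental mean of 3.66 ± 0.97 FPKM (SD, n = 3), a log2 fold change of 1.05 (SE 0.22, edgeR adjusted p = 0.00657). Both calls stood in every alternative that tested the gene.

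Claudins moved both ways. CLDN15, a channel-forming claudin of the intestine, was at 3.61, 3.14 and 3.00 FPKM in parental cells, 4.38 FPKM in both CR and DR, and 6.87 and 9.30 FPKM in PR cells (log2 fold change 0.79, SE 0.25, edgeR adjusted p = 0.0347), so that PR lay above CR and DR. CLDN11, known from myelin and from the testis barrier, was at 0.674, 0.606 and 0.433 FPKM in parental cells and at 0.0911 FPKM in CR, 0.225 FPKM in DR, and 0.217 and 0.210 FPKM in PR cells. It fell by 1.74 on the log2 scale (SE 0.37, edgeR adjusted p = 0.00636), with every drug-resistant library below every parental one. CLDN2, CLDN6 and CLDN10 passed at trace levels. Their highest FPKM in a drug-resistant library were 0.0698, 0.699 and 0.142, respectively. CLDN2 and CLDN6 had no parental count and were at least 3.15-fold and 8.29-fold higher, although CLDN2 had no count in CR and CLDN6 none in DR cells. CLDN1, the main claudin, did not pass (mean 21.5 ± 5.96 FPKM, SD, n = 4, against 23.7 ± 2.16, n = 3, edgeR adjusted p = 0.322).

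The scaffold TJP1 did not pass (edgeR adjusted p = 0.171).

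In the desmosomal plaque, the arm-repeat protein PKP4 fell and the other two called genes rose. PKP4 was at 18.4, 15.7 and 15.2 FPKM in parental cells and at 8.12 FPKM in CR, 8.38 FPKM in DR, and 9.96 and 7.80 FPKM in PR cells. The groups were far apart, with a mean of 8.56 ± 0.96 FPKM (SD, n = 4) against 16.4 ± 1.71 FPKM (SD, n = 3) and a log2 fold change of -1.06 (SE 0.17, edgeR adjusted p = 0.00167), a call that stood in all 15 alternatives. DSP and PKP1, a plakophilin of skin, rose from no more than 21 parental counts. DSP was at 0.0222 to 0.168 FPKM in drug-resistant cells against at most 0.0246 FPKM in parental cells, and PKP1 had 0, 11, 64 and 90 counts in CR, DR, PR replicate 1 and PR replicate 2 and none in parental cells (at least 13.7-fold higher). Among desmosomal cadherins DSG4 alone was called, at 0.0695 to 0.105 FPKM against 0.013 to 0.0356 FPKM, with edgeR adjusted p = 0.0499 and the call kept in 2 of 12 alternatives. JUP and DSG2, the main genes of this group, did not pass (edgeR adjusted p = 0.718 and 0.246).

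Connexins gave 3 higher calls and 1 lower. GJB7 was at 0.763, 0.758 and 0.869 FPKM in parental cells and at 2.68 FPKM in CR, 2.24 FPKM in DR, and 2.05 and 2.07 FPKM in PR cells, a log2 fold change of 1.37 (SE 0.26, edgeR adjusted p = 0.00372) with wide separation of the groups. GJA3, a lens connexin, was at 0.496, 0.661 and 0.841 FPKM in parental cells and at 1.35 FPKM in CR, 1.86 FPKM in DR, and 1.77 and 1.19 FPKM in PR cells (log2 fold change 1.08, SE 0.28, edgeR adjusted p = 0.016). GJB5 had 3 to 15 counts in each drug-resistant library and none in parental cells, at least 3.03-fold higher. GJC1, a connexin of heart and vessel muscle, was at 0.653 FPKM in CR and 0.647 FPKM in DR, but at 1.34 and 1.57 FPKM in PR cells, the latter inside the range of the parental values of 1.49, 1.99 and 1.41 FPKM (log2 fold change -0.82, SE 0.28, edgeR adjusted p = 0.0458). GJA1, which was higher in every drug-resistant library (36.9 to 44.9 FPKM) than in any parental one (20.1 to 34.2 FPKM), did not pass (log2 fold change 0.53, edgeR adjusted p = 0.0866).

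**Figure D4:**
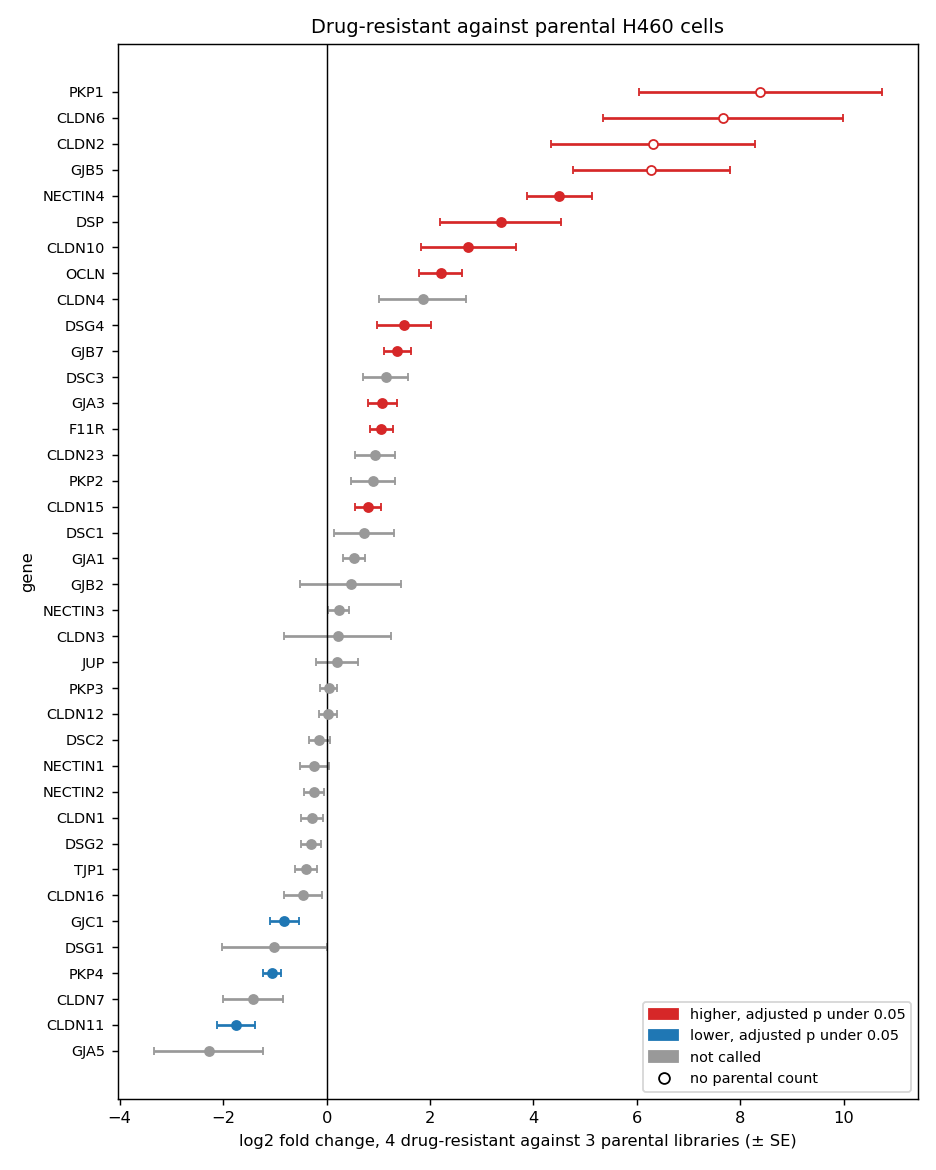
Log2 fold change with its SE (bars) of 38 of the 40 junction genes tested between 4 drug-resistant and 3 parental H460 libraries, ordered by size. The 13 genes called higher are red, 3 of the 4 called lower blue and the others grey, and open points mark genes without a parental count (PKP1, CLDN6, CLDN2 and GJB5), whose fitted size depends on the prior count.

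**Figure D5:**
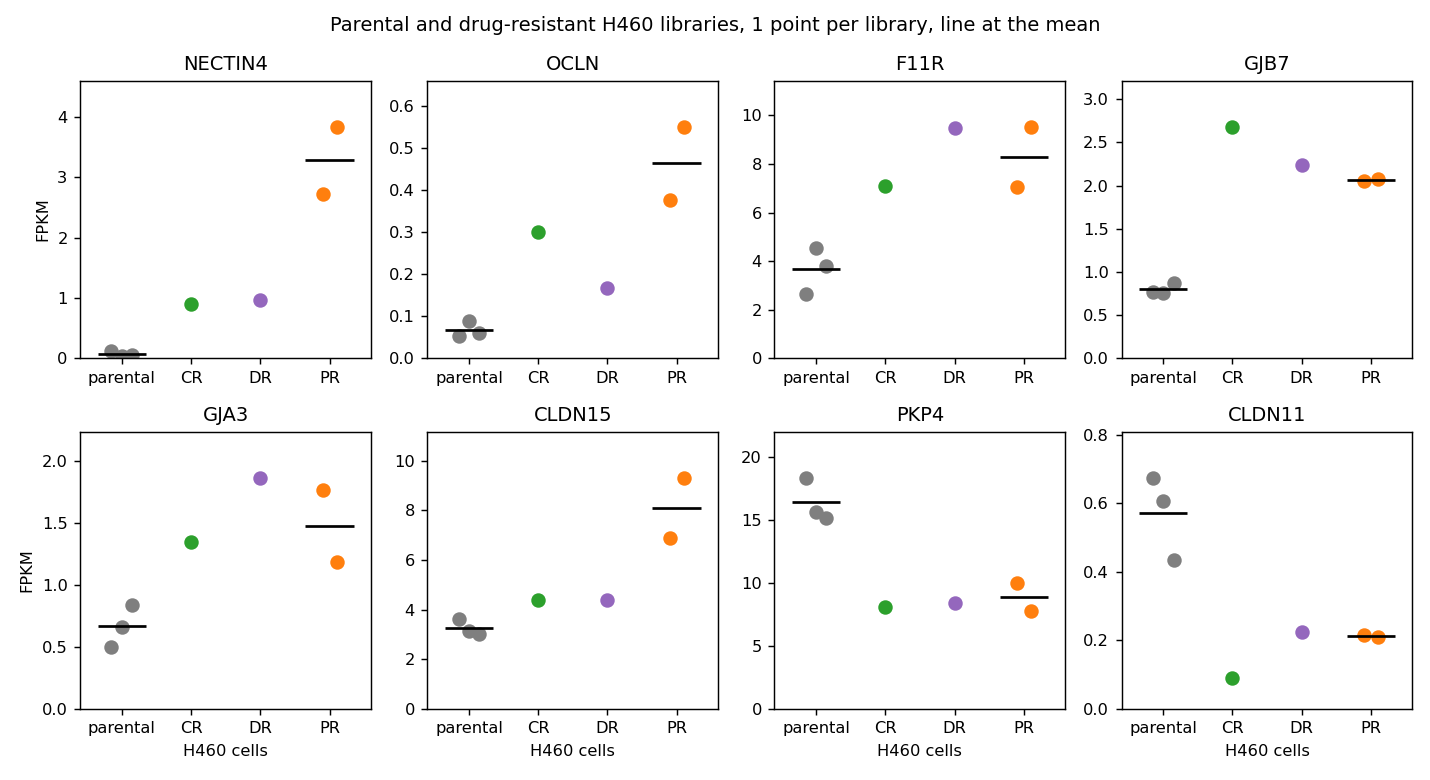
FPKM (vertical axes starting at 0) of 8 junction genes in parental, CR, DR and PR H460 cells, 1 point per library, with lines at the mean of the 3 parental and 2 PR libraries. NECTIN4, OCLN, F11R, GJB7, GJA3 and CLDN15 lie higher, and PKP4 and CLDN11 lower, in every drug-resistant library than in any parental library.

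Several of the higher calls are of genes with few counts, and drug-resistant libraries also had more genes with a count than parental ones, as given above. The part of this wider detection in the trace-level calls (CLDN2, CLDN6, CLDN10, PKP1, GJB5, DSP and DSG4) was not tested. The immune list summed to 42.2 to 72.5 FPKM in drug-resistant and 17.8 to 26.4 FPKM in parental cells, carried by CD68 and CD14, with PTPRC at no more than 0.157 FPKM. The fibroblast list summed to 6.10 to 21.1 FPKM against 14.1 to 28.2 FPKM, with COL3A1 at 2.50 to 7.22 FPKM against 13.6 to 26.5 FPKM. COL1A1 went the other way, at 0.783 FPKM in CR, 1.41 FPKM in DR, and 6.51 and 6.26 FPKM in PR cells against at most 0.193 FPKM in parental cells, and like NECTIN4 it was highest in the PR libraries. Their part in these results was not tested. Library names have 2 forms, with a hyphen (parental replicate 2, CR, DR and PR replicate 2) and without (parental replicates 1 and 3 and PR replicate 1). All 17 called genes had the same direction within both forms, but they were called from these same libraries. For CLDN2, CLDN6, PKP1 and GJB5, without a parental count, the direction could not reverse. GJC1 differed by -0.10 without the hyphen and by -1.09 with it, on log2(FPKM + 0.1). With the form as a covariate 9 of the 17 calls stood, those of CLDN11, DSP, F11R, GJA3, GJB5, GJB7, NECTIN4, OCLN and PKP4. The number of calls fell to 11 without parental replicate 1, to 10 without parental replicate 2 or 3, and to 11 and 10 without PR replicate 1 and 2. The calls of CLDN11, F11R, GJB5, GJB7, NECTIN4, OCLN and PKP4 stood in every alternative that tested the gene.

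For paclitaxel alone, 14 of 40 junction genes (35%) were higher in the 2 PR than in the 3 parental libraries, against 17.4% of genes tested, and 2 (5%) were lower, against 10.7%. This comparison shares its controls and both PR libraries with the one before it. The median log2 fold change was 0.45 over the junction genes and 0.05 over all genes, or 0.30 over all genes with upper-quartile scaling. NECTIN4 had a log2 fold change of 5.08 (SE 0.51, edgeR adjusted p = 0.000848) and OCLN one of 2.52 (SE 0.42, edgeR adjusted p = 0.0039). CLDN4 and DSC3 were called here and not in the comparison of all drug-resistant cells. CLDN4 was at 0.415 and 1.18 FPKM in PR but at 0.102 FPKM in both CR and DR cells, against 0.0713 to 0.165 FPKM in parental cells. PKP1 and CLDN6, without parental counts, were at least 26.0-fold and 15.6-fold higher in PR cells. PKP4 and CLDN11 were the 2 genes called lower. The count of calls fell from 16 to 7 without parental replicate 2, to 4 without PR replicate 1 and to 1 without PR replicate 2, where a lone PR library is assumed to vary like the other group. The calls of CLDN2, CLDN6, NECTIN4 and PKP1 stood in every alternative that tested them. CLDN2, CLDN6 and PKP1 had no parental count and met the count filter only through the 2 PR libraries. They were tested in 9 alternatives, and not with either PR library left out, whereas NECTIN4 was tested in 14. GJB5 and CLDN10, also called higher, had fewer than 10 counts in every parental library and met the filter only through the PR libraries. DSP had 21, 0 and 0 parental counts and could not meet it without a PR library.

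Other genes of the same structures were read from lists of known members. They held 8 adherens junction genes, 16 other tight junction genes, 4 other desmosome genes, 5 other gap junction genes, 13 factors known to regulate junction genes and 5 hemidesmosome genes. No gene of the 6 lists passed between TS and 2D cells, a test that called only 0.146% of all genes higher and 0.0433% lower. Between A549 and H460 cells, 6 of 13 other tight junction genes tested were higher and 1 lower, against 14.4% and 9.39% of all genes. CDH1 and CDH2, the E- and N-cadherins, were both higher in A549 cells, by 13.31 and 9.04 on the log2 scale. Between drug-resistant and parental cells, where 18.2% of all genes were called higher and 14.3% lower, 2 of 13 other tight junction genes tested were higher and 3 lower. The tricellular protein MARVELD2 (log2 fold change 1.04) and the adhesion molecule ESAM (2.20) were higher, whereas the cytoskeletal linker CGN (-1.75), the scaffold MAGI3 (-1.07) and the adhesion molecule CXADR (-0.78) were lower. Of 4 other desmosome genes, PERP (log2 fold change 0.90) and CDSN were higher, CDSN from a trace level. Of 7 adherens junction genes tested, only CDH3 was called, at no more than 0.113 FPKM, and neither CDH1 nor CDH2 was among the calls. Among 8 regulators tested, the repressor ZEB1 was lower, at 1.11 to 2.06 FPKM against 1.94 to 3.11 FPKM (log2 fold change -0.93, SE 0.26, edgeR adjusted p = 0.0216), and the splicing regulator ESRP1 was called higher at no more than 0.0413 FPKM. Of 5 hemidesmosome genes, PLEC (1.19) and COL17A1 were higher, and none of the 2 other gap junction genes tested passed. The median log2 fold changes in this comparison were -0.21 for the adherens junction, -0.20 for other tight junction, 0.52 for other desmosome, 0.40 for other gap junction, 0.35 for regulator and -0.10 for hemidesmosome genes, beside 0.11 over all genes. The SNAIL factor SNAI2 went the other way from ZEB1, at 4.93 and 5.77 FPKM in PR against 1.46 to 2.43 FPKM in parental cells. In CR and DR cells it was at 2.42 and 2.86 FPKM. SNAI2 was called higher in PR cells (log2 fold change 1.19, SE 0.32, edgeR adjusted p = 0.0225) but not over all drug-resistant cells, and ZEB1 was not called in PR cells.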

How the data were processed

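The authors deposited 1 table with read counts, FPKM and TPM per gene for each library. Per the submitters' processing notes it was made with bcl2fastq 1.8.4, Trimmomatic, HISAT2 2.1.0 and StringTie 2.1.3b on GRCh38. The counts deposited by the authors are whole numbers without normalization, and the FPKM values were normalized by the authors for transcript length and depth. The deposited TPM values are a constant multiple of FPKM within a library and were not used. The table has no per-sample column that could not be assigned to a library. How reads shared between genes and strands were counted is not given in the sources used here.

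Counts were tested with edgeR 4.0.16 (R 4.3.3): TMM factors, genes with at least 10 counts in at least 2 libraries of the fit, the quasi-likelihood test, and Benjamini-Hochberg adjustment over all genes tested, with a threshold of 0.05. TS against 2D cells and A549 against H460 cells came from 1 additive fit of 6 libraries, and the difference of the TS effects from the same fit with an interaction. SE is the absolute log2 fold change divided by the square root of F. Differences of unreplicated libraries are on the log2(FPKM + 1) scale, over genes reaching 1 FPKM in some library. The edgeR fits were tested on simulated counts, where only genes with higher counts were made to change. Other steps, and changes of genes with few counts, were not tested this way. Bounds against groups without counts use a floor of 3 counts per library and, like the interval, cover counting error only and take each count as 1 read.

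Named are the genes called in any comparison other than the interaction, those over 2-fold in both TS libraries (none with a pseudocount of 1) and the 10 with the highest mean FPKM, 35 in all. Some of these are not reported here. Other genes were named after their values were seen. The genes and lists were chosen with earlier results of these data known. Alternatives were DESeq2 1.42.0, upper-quartile scaling, other filters, protein-coding genes only, limma 3.58.1 on log2(FPKM + 1) and log2(FPKM + 0.1), the form of the library name as a covariate, a replicate block, and leaving out each library.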

Additional observations from a re-analysis of the deposited data

Results flagged for a closer look

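Over the 4 drug-resistant libraries, 3 of the 35 named genes had 1 library apart from the other 3, where chance alone flags about 1 in 20 such groups. Among 35 genes some flags thus arise by chance alone, and the share over all genes was not taken. CLDN11 was at 0.0911 FPKM in CR and at 0.210 to 0.225 FPKM in the others. CLDN23 was at 0.895 FPKM in PR replicate 2 and at 0.425 to 0.454 FPKM in the others. GJB1 was at 0.0161 FPKM (4 counts) in DR and at 0 in the others, where any count in 1 library alone would be flagged. DSC3 stood out because its TS effect differed between the lines, by 9.28 on the log2 scale (edgeR adjusted p = 0.0484), as its counts were 0 in H460 TS and 1326 in A549 TS cells.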

How the results depend on the processing

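No called gene changed sign under any alternative that tested it. Calls over all genes moved with the settings too. Between TS and 2D cells they were 27 higher and 8 lower of 18488 genes, and 311 and 226 with DESeq2. Between drug-resistant and parental cells they were 3624 and 2841 of 19902, and 2249 and 2185 of 12755 with the FPKM filter. Between PR and parental cells they were 3387 and 2079 of 19430, and 1446 and 1296 of 12593 with that filter. Between TS and 2D cells, the count of junction genes called went from 1 to 6 with DESeq2 and to 0 with limma at either pseudocount, and lay between 0 and 2 when 1 library was left out. Between A549 and H460 cells it went from 18 to 11 with limma at either pseudocount, and lay between 12 and 18 with 1 library left out. For the difference of TS effects it went from 1 to 0 with upper-quartile scaling, without a filter on low counts, with the FPKM filter and with limma on log2(FPKM + 0.1), and lay between 0 and 3 with a parental library left out, while it could not be estimated without the H460 TS or either A549 library. Between drug-resistant and parental cells it went from 17 to 8 with the FPKM filter, which dropped 9 of the called genes from the test, to 7 with limma at either pseudocount and to 9 with the form of the library name as a covariate, and lay between 10 and 15 with 1 library left out. Between PR and parental cells it went from 16 to 5 with the FPKM filter, to 6 and 5 with limma at the pseudocounts 1 and 0.1 and to 9 with the name form, and lay between 1 and 17 with 1 library left out. PR and parental replicates 1 and 2 share a number only (correlation of their differences 0.078 over 19430 genes), and with the replicate number as a block 16 junction genes were called, 14 higher and 2 lower, on 1 residual degree of freedom. With a pseudocount of 0.1 in place of 1, the junction genes over 2-fold in TS cells went from 1 to 3 higher and from 0 to 1 lower in H460, from 9 to 13 higher and from 0 to 2 lower in A549, and from 0 to 2 higher and 0 to 1 lower in both lines. On that log2 scale the A549 TS difference was 4.12 for CLDN4 in place of 2.30 and 4.34 for TJP3 in place of 2.55, and the H460 TS difference of GJA5 was 7.79 in place of 6.20. With a pseudocount of 1, the GJA5 difference was 4.73 against parental replicate 1 alone.

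The limits are those of the design: the TS, 2D A549, CR and DR groups have 1 library each, so that their differences carry no replicate check, and genes with few counts, such as PKP1, GJB5, CLDN6 and CLDN10, have intervals too wide for their size to be read. Where a call was lost by a tool or scaling that tested the gene, the cause was not tested.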
